A study of Cucurbita pepo with 23 samples.

Results

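The 14-3-3 protein family of squash nectaries was examined at transcript level. A gene was counted as a member when the melon description attached to its row contained "14-3-3", a choice that used no expression value, and 8 of the 8861 genes in the expression table met it. RNA had been sequenced from dissected floral nectaries of Cucurbita pepo, the cultivar Crookneck Yellow Squash, in 23 libraries of 2 sexes and 4 stages. The stages were pre-secretory #1 (−24 hr), pre-secretory #2 (−15 hr), secretory (0 hr, full anthesis) and post-secretory (+9 hr), with 3 libraries per sex and stage except for 2 of female nectaries at −15 hr. Male and female flowers came from plants of the same cultivar grown under the same light regime, with no treatment. The hours are those of the study's methods, whereas the design text in GEO gives −12 hr for the second stage and +12 hr for the last. Nothing in the labels says whether libraries of a group came from separate plants, so p-values measure the spread between these libraries, which may be in part technical. Stage and time of day varied together, since the −24 and 0 hr nectaries were collected at one clock time and the −15 and +9 hr nectaries at another.

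The 14-3-3 proteins are adaptors that work as dimers and bind client proteins at phosphorylated serine or threonine residues, thereby changing the activity, location or stability of the client. In plants the family falls into an epsilon and a non-epsilon group. Clients known from leaves, roots and guard cells include nitrate reductase, the plasma membrane proton pump, sucrose-phosphate synthase, trehalose-phosphate synthases, calcium-dependent protein kinases, phototropins and hormone-response transcription factors. Several of these act in nitrogen and sugar metabolism and in membrane energization, processes that a nectar-secreting tissue also uses.

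Of the 8 members, 4 carried Arabidopsis matches of the non-epsilon group alone. XM_008467997.1 (LOC103503696, 14-3-3-like protein) was matched to Arabidopsis phi, chi and nu, XM_008468006.1 (LOC103503705, 14-3-3 protein 7-like) to chi, XM_008457358.1 (LOC103495723, 14-3-3-like protein) to psi, upsilon and chi, and XM_008446631.1 (LOC103488075, 14-3-3-like protein) to omega. A further 3 carried matches of the epsilon group alone. These were XM_008446615.1 (LOC103488064, 14-3-3 protein 7-like), matched to epsilon, XM_008447230.1 (LOC103488469, GF14 iota), matched to iota, and XM_008448206.1 (LOC103489177, GF14 iota), matched to iota and epsilon. The remaining member, XM_008457085.1 (LOC103495503, 14-3-3-like protein D), was matched to psi of the non-epsilon group and to omicron and mu of the epsilon group. Chi was a match of 3 members and iota of 2. Psi was shared by XM_008457085.1 (protein D) and XM_008457358.1, and epsilon by XM_008446615.1 and XM_008448206.1. A row with several Arabidopsis matches, such as that of protein D, may pool assembled contigs. Reads of near-identical copies may thus be split or merged among these rows. The names phi to omega are the Arabidopsis isoform names of the deposited locus matches.

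Values are normalized reads, which the authors had scaled to the upper quartile of each library and rounded to whole numbers. Totals over the 8861 genes ran from 9269760 to 16139522 per library and the upper quartile from 1028 to 1122. The read depth before normalization is unknown. The E3 ubiquitin ligase XM_008439865.1, set beside the members as a reference, had group means from 2257 to 3078 and was called in none of the 17 comparisons (the smallest adjusted p, 0.21, came from limma over all genes). It was taken as the RING/U-box ligase that the paper used as its PCR reference. The paper chose that gene for its stable level in these same libraries, so its steadiness here is no check of the normalization. The tissue label was set beside 3 nectary markers (SWEET9, a sucrose exporter, the transcription factor MYB305 and the cell wall invertase CWINV4), and none of them was at 0 in any group. Their summed level was 589 to 1254 in the female −24 hr libraries, however, against 96244 to 207113 in the male −24 hr libraries and 250937 to 662420 in the −15 and 0 hr libraries of both sexes. Female +9 hr libraries summed to between 1371 and 30667 and male ones to between 10818 and 41181. In the paper SWEET9 and MYB305 were low at −24 hr and peaked at 0 hr, whereas CWINV4 peaked at −15 hr. Since these markers change with stage, their sums cannot tell a difference of tissue from one of stage. At −24 hr the female libraries had higher summed levels of 2 xylem markers (463 to 560, against 111 to 148 in the male ones) and of 4 phloem markers (836 to 954, against 405 to 807). The phloem difference lay in PHLOEM PROTEIN 2-LIKE A9-like (XM_008460832.1, mean 527 against 59.7), since the other 3 phloem markers had means of 111 to 135 in female and 129 to 325 in male libraries. For 4 pollen or anther markers the sums ran from 1965 to 2295 and from 2438 to 3160, respectively, and the guard cell list matched no gene. The female −24 hr libraries thus stood apart in nectary markers, and the part of these differences in what follows was not tested. Female +9 hr libraries were the least alike within a group, with mean correlations to their own group of 0.800 to 0.851 against at least 0.921 in every other group.

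**Figure D1:**
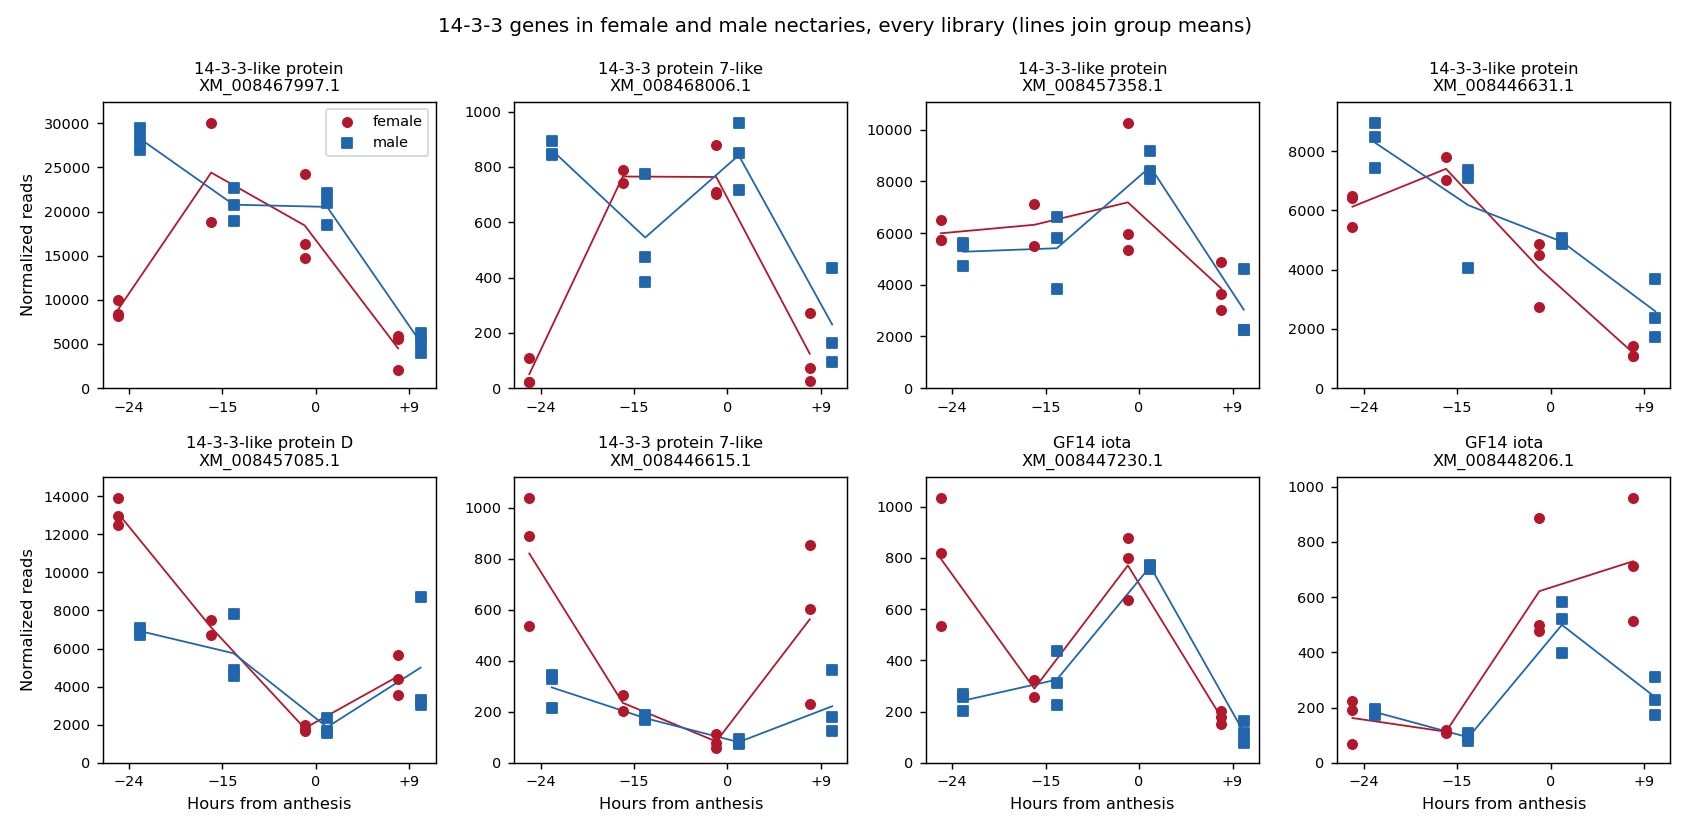
Normalized reads (vertical axis, from 0) of the 8 members in each library at 4 stages (horizontal axis, hours from anthesis), with female libraries as red circles, male libraries as blue squares and lines joining group means. XM_008457085.1 (protein D) was lowest at 0 hr in both sexes, whereas XM_008467997.1 dropped between 0 and +9 hr in both and was low at −24 hr in female libraries.

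Among members with non-epsilon matches, XM_008467997.1 was low in female nectaries at −24 hr, then high until anthesis, and low again afterwards. It measured 8428, 8155 and 9926 normalized reads in the 3 female libraries at −24 hr, 30032 and 18801 at −15 hr, 24244, 14735 and 16305 at 0 hr, and 5543, 2059 and 5870 at +9 hr. In male libraries the values were 29444, 28253 and 27023 at −24 hr, 18875, 22696 and 20764 at −15 hr, 22158, 21006 and 18425 at 0 hr, and 6288, 5271 and 3989 at +9 hr. Male nectaries therefore lacked the low −24 hr values, while the low +9 hr values were common to both sexes and did not overlap with those at 0 hr. The rise in female nectaries from −24 to −15 hr was 2.70-fold (log2 1.43, SE 0.36, limma adjusted p = 0.0034). Without the first female −15 hr library this rise was log2 1.09 with an adjusted p of 0.074 and was not called. That fit, like any that leaves out a female −15 hr library, holds 1 library in this group and assumes that it varies like the other groups. The drop from 0 to +9 hr was log2 −2.15 (SE 0.32, limma adjusted p = 1.6e-05) in female and −2.01 (SE 0.32, limma adjusted p = 2.8e-05) in male nectaries. These are bulk samples, so fewer cells of a type and less RNA per cell cannot be told apart.

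XM_008468006.1, also matched to chi, followed the same outline as XM_008467997.1. Female values were 21, 21 and 109 at −24 hr, 743 and 788 at −15 hr, 879, 702 and 710 at 0 hr, and 273, 27 and 73 at +9 hr. Male values were 894, 843 and 848 at −24 hr, 475, 384 and 775 at −15 hr, 850, 718 and 959 at 0 hr, and 433, 163 and 94 at +9 hr. The female −24 hr group and the +9 hr groups of both sexes were thus the low ones. Each had 1 library well above the rest, the third at female −24 hr and the first at +9 hr in both sexes. Its rise from −24 to −15 hr in female nectaries was 20.4-fold (log2 4.35, SE 0.74, limma adjusted p = 0.00011), the widest change of any member between successive stages. From 0 to +9 hr it fell in both sexes, by log2 −3.20 (limma adjusted p = 0.00036) in female and −2.15 (limma adjusted p = 0.0084) in male nectaries. Without the third male +9 hr library the male drop was −1.65 with an adjusted p of 0.054. The ratio of XM_008467997.1 to XM_008468006.1 within a library was 401, 388 and 91.1 at female −24 hr and 14.5 to 80.4 in the other 20 libraries.

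XM_008457358.1 varied least among the 8 members, with a coefficient of variation of 35.9% over the 23 libraries against 65.9% for the median gene. Its group means were 5993 ± 453 (SD, n = 3), 6322 ± 1144 (n = 2), 7191 ± 2676 (n = 3) and 3855 ± 944 (n = 3) in female nectaries from −24 to +9 hr. In male nectaries they were 5278 ± 481, 5414 ± 1443, 8567 ± 550 and 3035 ± 1372 (n = 3 each). It was called in a single step, the drop from 0 to +9 hr in male nectaries (log2 −1.58, SE 0.29, limma adjusted p = 1e-04), where values went from 9176, 8108 and 8417 to 4620, 2235 and 2251. The female counterpart was log2 −0.87 with an adjusted p of 0.014, short of the 2-fold threshold, and became −1.13 (limma adjusted p = 0.0025) when libraries were scaled by median ratios.

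XM_008446631.1, matched to omega, had its lowest group means at +9 hr in both sexes. Female means were 6129 ± 582, 7407 ± 556, 4041 ± 1128 and 1194 ± 201 and male means 8293 ± 772, 6177 ± 1844, 4946 ± 102 and 2592 ± 1011 from −24 to +9 hr. Female +9 hr values of 1425, 1068 and 1088 lay below every other value of this gene, the closest being 1711 in the third male +9 hr library. The drop from 0 to +9 hr was log2 −1.73 (SE 0.27, limma adjusted p = 2.4e-05) in female nectaries. In male nectaries it was −1.004 (SE 0.27, limma adjusted p = 0.0033), at the edge of the 2-fold threshold, and it was −0.74 to −0.99 and not called without the first 0 hr, the second +9 hr or the third +9 hr male library.

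14-3-3-like protein D (XM_008457085.1) ran the other way, with its lowest levels at anthesis. In female nectaries it measured 13924, 12977 and 12484 normalized reads at −24 hr, 7511 and 6702 at −15 hr, 1796, 1967 and 1668 at 0 hr, and 4395, 3578 and 5659 at +9 hr. Male libraries gave 7092, 6934 and 6722 at −24 hr, 4572, 4872 and 7803 at −15 hr, 1577, 1662 and 2364 at 0 hr, and 8706, 3014 and 3272 at +9 hr. Ordered by group mean, female −24 hr (13128) stood alone at the top with no value shared with another group. Next came female −15 hr (7107), male −24 hr (6916), male −15 hr (5749), male +9 hr (4997) and female +9 hr (4544), each of which overlapped in its libraries with its neighbours in that order. The 0 hr groups, male (1868) and female (1810), overlapped with each other and lay below all the rest. From −15 to 0 hr the gene fell 3.93-fold in female (log2 −1.97, SE 0.34, limma adjusted p = 7.5e-05) and 3.04-fold in male nectaries (log2 −1.60, SE 0.31, limma adjusted p = 0.00019).

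After anthesis protein D rose again, by log2 1.31 (SE 0.31, limma adjusted p = 0.0011) in female and 1.26 (SE 0.31, limma adjusted p = 0.0015) in male nectaries. The male rise leaned on 1 library, since without the first male +9 hr library it was log2 0.77 with an adjusted p of 0.011, under the 2-fold threshold. The earlier step from −24 to −15 hr was log2 −0.89 in female nectaries (limma adjusted p = 0.041) and −0.31 in male nectaries (limma adjusted p = 0.67), and neither was called.

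Of the members with epsilon matches, XM_008446615.1 was the most like protein D across libraries, with a Pearson correlation of log2 values of 0.82 over the 23 libraries. It measured 1040, 888 and 535 at female −24 hr, 203 and 267 at −15 hr, 59, 79 and 112 at 0 hr, and 229, 854 and 605 at +9 hr. Male values were 343, 330 and 214, then 171, 168 and 186, then 76, 74 and 93, and at +9 hr 364, 123 and 178. Both sexes thus had their lowest values at 0 hr, with no overlap with the stage before or after. In female nectaries it fell at both pre-anthesis steps (log2 −1.76, limma adjusted p = 0.0051, and −1.52, limma adjusted p = 0.0091) and rose 6.03-fold from 0 to +9 hr (log2 2.59, SE 0.42, limma adjusted p = 3.6e-05). With the second female −15 hr library alone the first drop was −1.56 (adjusted p = 0.058), and with the first alone the later one was −1.32 (adjusted p = 0.079), so that both stayed past 2-fold but not past the p threshold. Male changes were smaller, log2 −1.11 from −15 to 0 hr (limma adjusted p = 0.030) and 1.30 from 0 to +9 hr (limma adjusted p = 0.012). The male drop was not called without any single one of the −15 hr or the first or second 0 hr libraries (log2 −1.05 to −1.14, adjusted p of 0.053 to 0.076) nor with median-ratio scaling (log2 −0.79, adjusted p = 0.095), and the male rise was 0.87 (adjusted p = 0.093) without the first +9 hr library.

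The GF14 iota genes both rose from −15 hr to anthesis and parted afterwards in female nectaries. XM_008447230.1 measured 1035, 821 and 533 at female −24 hr, 324 and 255 at −15 hr, 877, 634 and 801 at 0 hr, and 150, 178 and 202 at +9 hr. In male libraries it measured 257, 201 and 270, then 311, 437 and 226, then 758, 773 and 768, and finally 117, 76 and 164. The 0 hr values were high and closely grouped in both sexes, and the female −24 hr values were as high, with a difference between the female −24 and 0 hr groups of log2 −0.01 (95% confidence interval −0.61 to 0.60, limma adjusted p = 0.98). From −15 to 0 hr it rose 2.65-fold in female (log2 1.41, SE 0.32, limma adjusted p = 0.00099) and 2.44-fold in male nectaries (log2 1.29, SE 0.29, limma adjusted p = 0.00083). From 0 to +9 hr it fell 4.34-fold (log2 −2.12, limma adjusted p = 5.7e-06) and 6.70-fold (log2 −2.75, limma adjusted p = 2e-07).

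XM_008448206.1 measured 225, 192 and 69 at female −24 hr, 117 and 108 at −15 hr, 500, 886 and 479 at 0 hr, and 515, 960 and 714 at +9 hr. Male values were 174, 193 and 184, then 92, 106 and 78, then 398, 581 and 519, and 310, 172 and 229 at +9 hr. It was therefore high at 0 hr in both sexes, and at +9 hr the 3 female libraries were all above the 3 male ones. The rise from −15 to 0 hr was 5.27-fold (log2 2.40, SE 0.41, limma adjusted p = 5.7e-05) in female and 5.36-fold (log2 2.42, SE 0.36, limma adjusted p = 1.6e-05) in male nectaries. From 0 to +9 hr the female value was log2 0.24 (95% confidence interval −0.51 to 1.00, limma adjusted p = 0.57). The male value was −1.10 (SE 0.36, limma adjusted p = 0.013), a drop that was not called without the second 0 hr library (−0.98, adjusted p = 0.052) or the second +9 hr library (−0.89, adjusted p = 0.067).

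Counted over the family, a member was called in a comparison when its limma p adjusted over all 8861 genes was below 0.05 and its change was at least 2-fold. From −24 to −15 hr, 4 of 8 members were called in female nectaries (2 higher, 2 lower), against 37.9% of all genes called in that step (13.9% higher, 24.0% lower). In male nectaries 0 of 8 were called at the same step, where 5.27% of all genes were, and 1 member, XM_008448206.1, had an unadjusted limma p below 0.05 (log2 −0.999, adjusted p = 0.12). From −15 to 0 hr, 4 members were called in female nectaries, beside 51.6% of all genes (20.5% higher, 31.1% lower), and 4 in male nectaries, beside 47.2% (17.5% higher, 29.7% lower). In both sexes these were protein D and XM_008446615.1, which fell, and the GF14 iota genes, which rose. From 0 to +9 hr, 6 members were called in female (2 higher, 4 lower) and all 8 in male nectaries (2 higher, 6 lower). The male calls of protein D, XM_008446615.1, XM_008446631.1, XM_008448206.1 and XM_008468006.1 were each lost when 1 of the libraries named above was left out. Those of XM_008467997.1, XM_008457358.1 and XM_008447230.1 were not lost in this way. Over all genes, 49.4% were called in female (32.0% higher, 17.3% lower) and 49.0% in male nectaries (31.4% higher, 17.6% lower). Markers moved at this step too. Nectary sums went from between 360451 and 458341 to between 1371 and 30667 in female and from between 444992 and 662420 to between 10818 and 41181 in male libraries. Xylem sums went from 86 to 145 up to 582 to 2114 in female libraries, and from 73 to 108 up to 322 to 1238 in male ones. Their part in the changes of the members was not tested. In both sexes the members that rose were protein D and XM_008446615.1. The median change of the 8 members at that step was log2 −1.30 in female and −1.34 in male nectaries, beside 0.34 and 0.29 over all genes.

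**Figure D2:**
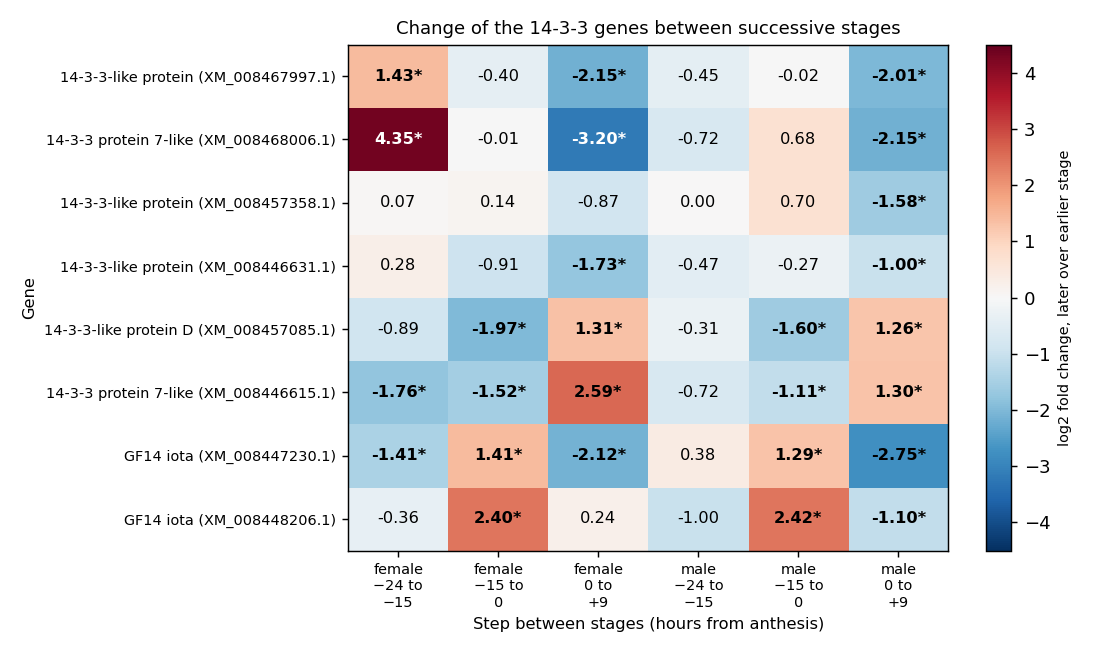
Log2 fold change, later over earlier stage, of the 8 members (rows) at the 6 steps between successive stages (columns), with blue for lower, red for higher and an asterisk for a called change. The columns from 0 to +9 hr were mostly blue in both sexes, with protein D and XM_008446615.1 in red, and the column from −24 to −15 hr in male nectaries held no called change.

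Libraries of successive stages did not overlap for 6, 5 and 7 of the 8 members at the 3 female steps, beside 67.5%, 77.6% and 61.3% of all genes. At the male steps the counts were 5, 5 and 8, beside 34.6%, 69.6% and 67.7%. With 8 genes in the family, these shares are coarse, and the last male step was the one at which every member was separated. Summed over the 8 members, normalized reads were 35916 ± 1545 (SD, n = 3), 46655 ± 10192 (n = 2), 33710 ± 8480 (n = 3) and 15677 ± 3699 (n = 3) in female nectaries from −24 to +9 hr. In male nectaries the sums were 50311 ± 1752, 39254 ± 6027, 38100 ± 1808 and 16615 ± 6900 (n = 3 each). The sum was lowest at +9 hr in both sexes, where its libraries did not overlap with those of any earlier stage. Library totals over all genes were also lower at +9 hr (9269760 to 11376057) than at 0 hr (14809893 to 16139522). The family sums were not divided by these totals, so they are not shares of a library.

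Between stages of the same clock time, the 24 hr from pre-secretory #1 to anthesis brought called changes in 5 members in female (3 higher, 2 lower) and 4 in male nectaries (2 higher, 2 lower). Over all genes 63.5% were called in female (25.6% higher, 38.0% lower) and 48.7% in male nectaries (17.5% higher, 31.1% lower). Protein D fell in both, by log2 −2.86 (SE 0.31, limma adjusted p = 8.4e-08) and −1.91 (SE 0.31, limma adjusted p = 3e-05), and so did XM_008446615.1, by −3.28 and −1.83. XM_008448206.1 rose in both, by 2.04 and 1.42. XM_008447230.1 rose in male nectaries (1.67, limma adjusted p = 6.9e-05), and XM_008467997.1 and XM_008468006.1 rose in female nectaries (1.03 and 4.34), the first of them falling under 2-fold without the first or second −24 hr or the first 0 hr female library (0.82 to 0.9998).

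From −15 to +9 hr, the other pair of one clock time, 4 members were called in each sex (1 higher, 3 lower). Over all genes 47.5% were called in female (25.5% higher, 21.9% lower) and 43.6% in male nectaries (24.2% higher, 19.4% lower). XM_008448206.1 was the member that rose, by log2 2.64 (limma adjusted p = 1.9e-05) in female and 1.33 (limma adjusted p = 0.0043) in male nectaries. XM_008467997.1 fell by −2.55 and −2.02 and XM_008446631.1 by −2.64 and −1.27. XM_008468006.1 fell in female nectaries (−3.21, limma adjusted p = 0.0011), with a male value of −1.46 (limma adjusted p = 0.066), and XM_008447230.1 fell in male nectaries (−1.46, limma adjusted p = 0.00028), with a female value of −0.71 (limma adjusted p = 0.069). Protein D was at log2 −0.67 and −0.34 and was called in neither sex. These comparisons share their groups with the successive steps above.

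Female and male nectaries were compared at each stage. At −24 hr, 4 of 8 members were called, 2 higher and 2 lower in female nectaries, beside 41.2% of all genes (24.6% higher, 16.6% lower), and 7 had libraries that did not overlap between the sexes, beside 67.0% of all genes. XM_008446615.1 and XM_008447230.1 were higher in female nectaries (log2 1.45, limma adjusted p = 0.0074, and 1.67, limma adjusted p = 9.3e-05), and XM_008467997.1 and XM_008468006.1 were lower (−1.68, limma adjusted p = 0.00026, and −4.52, limma adjusted p = 1.5e-05). Protein D was higher in every female than in every male library at this stage, by 0.92 (95% confidence interval 0.28 to 1.57, limma adjusted p = 0.016), short of 2-fold. This is the stage at which the nectary markers given above differed most between the sexes, and their part in these differences was not tested.

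At −15 and 0 hr, limma called 0 of 8 members, with 0 at an unadjusted p below 0.05, where 0.135% and 0.248% of all genes were called. The widest 95% confidence interval at 0 hr was that of XM_008468006.1, from −1.52 to 1.24, and the narrowest that of XM_008446631.1, from −0.90 to 0.23. That of protein D was −0.67 to 0.62 at 0 hr and −0.37 to 1.06 at −15 hr. Female and male libraries overlapped for all 8 members at 0 hr, where they did not for 22.9% of all genes. At −15 hr the female libraries of XM_008448206.1 and XM_008446615.1 lay above the male ones without overlap. The share of all genes separated at −15 hr is not given here.

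At +9 hr, 3 members were called, 2 higher and 1 lower in female nectaries, beside 14.7% of all genes (8.36% higher, 6.36% lower). XM_008448206.1 was higher in female nectaries by log2 1.61 (SE 0.36, limma adjusted p = 0.0050) and XM_008446615.1 by 1.29 (SE 0.42, limma adjusted p = 0.037), although the libraries of the latter overlapped. XM_008446631.1 was lower by −1.06 (SE 0.27, limma adjusted p = 0.011). The calls of XM_008446615.1 and XM_008446631.1 were both lost without the second or the third female +9 hr library, which left 1 member called. That of XM_008446615.1 was also lost without the second or the third male +9 hr library and that of XM_008446631.1 without the first. XM_008468006.1, at −1.19 with an adjusted p of 0.21, was called without the first female +9 hr library (−2.05, adjusted p = 0.015), which brought the count to 4. Protein D was at 0.02 (95% confidence interval −0.62 to 0.66). Nectary sums at +9 hr also ran lower in some female libraries. Female and male means were 8061 and 22290 for SWEET9, 3067 and 2150 for MYB305, and 59 and 75 for CWINV4. The sums of xylem markers (582 to 2114, against 322 to 1238 in male libraries) and of phloem markers (1389 to 6191, against 787 to 1441) reached higher in female libraries. Among phloem markers, PHLOEM PROTEIN 2-LIKE A1-like spread from 248 to 4191 in female libraries, against 50 to 192. Means of A10 were alike (523 and 519), and those of A9-like (691 and 405) and SUC3 (200 and 107) were higher in female libraries. The part of these in the differences was not tested.

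**Figure D3:**
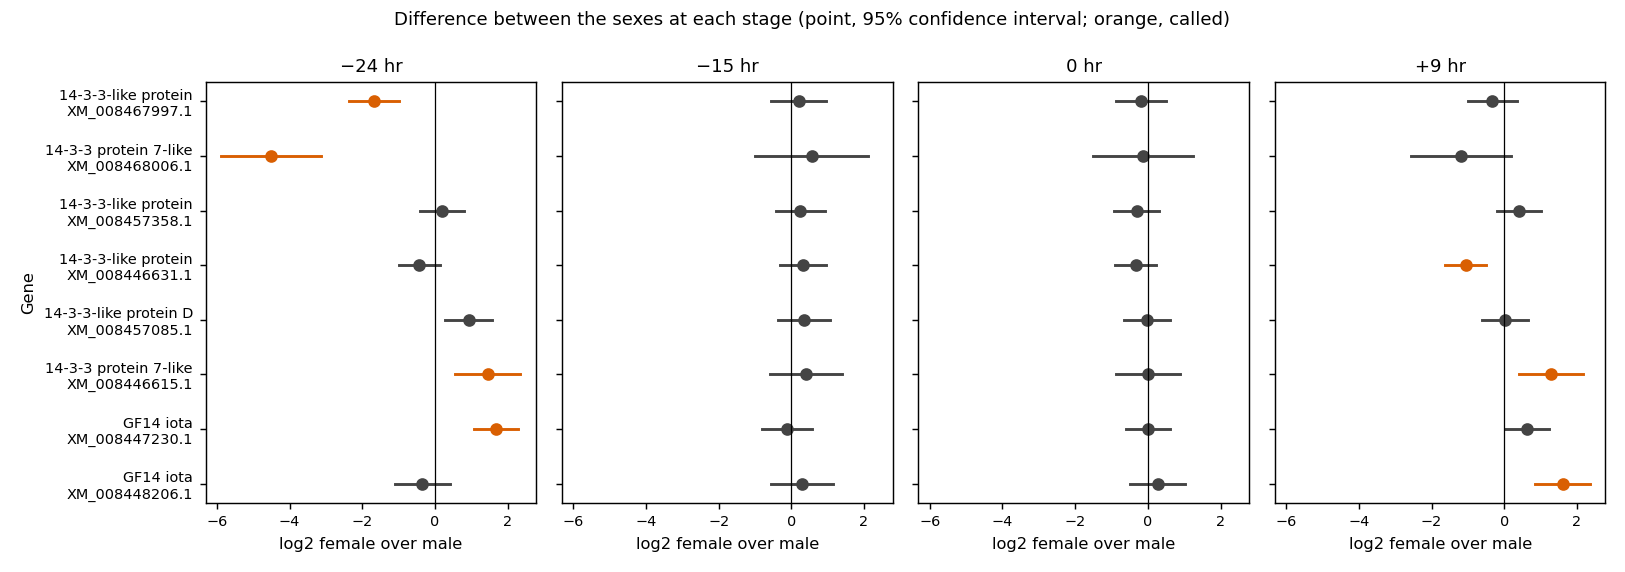
Log2 difference, female over male (horizontal axis), of the 8 members (rows) at the 4 stages (panels), with points for the fitted difference, bars for the 95% confidence interval and orange for called differences. Points at −15 and 0 hr sat near 0 with no call, whereas at −24 hr 4 members were called, from −4.52 to 1.67.

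The change from −24 to −15 hr itself was compared between the sexes, and 3 of 8 members differed. The female change was the higher one for 2 of them, beside 12.3% of all genes, and the lower one for 1, beside 15.7%. The change was greater in female nectaries for XM_008467997.1 (difference of log2 changes 1.88, SE 0.49, limma adjusted p = 0.0070) and XM_008468006.1 (5.07, SE 0.99, limma adjusted p = 0.00089) and more negative for XM_008447230.1 (−1.79, SE 0.43, limma adjusted p = 0.0045). Without the first female −15 hr library, which leaves 1 library in that group and its spread to be taken from the other groups, that of XM_008467997.1 was 1.54 with an adjusted p of 0.056. For the step from −15 to 0 hr limma called 0 members, with 0 at an unadjusted p below 0.05 and 0.0113% of all genes called. For the step from 0 to +9 hr it also called 0 members, with 7.18% of all genes called, and XM_008448206.1 (1.34, adjusted p = 0.11) and XM_008446615.1 (1.29, adjusted p = 0.19) had an unadjusted p below 0.05. Without the first female +9 hr library both were called (1.57 and 1.84, adjusted p of 0.044 and 0.019).

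The genes most like protein D across the 23 libraries were ranked by Pearson correlation of log2 values among the other 8860 genes. They were the probable methyltransferase PMT13 (XM_008439867.1, r = 0.961), an intron splicing facilitator CRS1-like (XM_008440359.1, r = 0.959), the cornichon homolog XM_008444048.1 (r = 0.959), methylthioribose kinase, an enzyme of methionine salvage (XM_008457949.1, r = 0.958), and the uncharacterized XM_008449011.1 (r = 0.956). Spearman correlations were 0.908 to 0.956, and without the 2 libraries farthest from the median of protein D the Pearson values were 0.943 to 0.957. The points are libraries that share groups, so these values describe a shared course over stages. All 5 had their highest group mean at female −24 hr and their lowest at 0 hr, at 1.88% to 11.2% of the highest mean in female and 2.68% to 10.4% in male nectaries, against 13.8% and 14.2% for protein D.

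**Figure D4:**
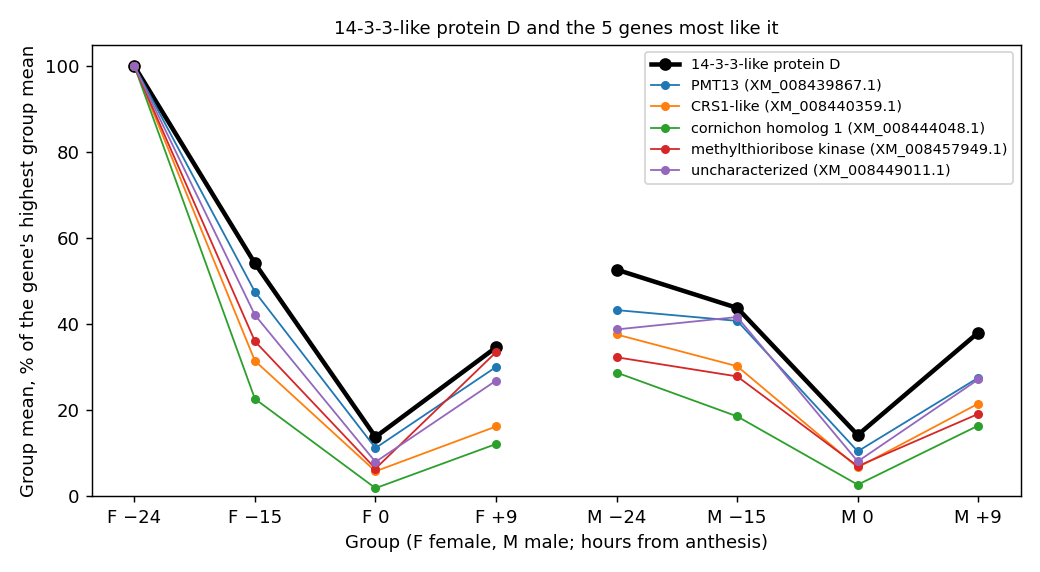
Group mean as a percentage of each gene's own highest group mean (vertical axis, from 0) for protein D (black) and the 5 genes most like it (colours) across the 4 female and 4 male groups (horizontal axis). All 6 genes were at 100% in female nectaries at −24 hr and at 14.2% or less at 0 hr in both sexes.

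Among the members themselves, XM_008467997.1 correlated with XM_008446631.1 (r = 0.82) and XM_008468006.1 (r = 0.78) over the 23 libraries, and XM_008457358.1 with XM_008447230.1 (r = 0.76). Protein D was negatively correlated with XM_008448206.1 (r = −0.61), and XM_008446615.1 with XM_008468006.1 (r = −0.75). Libraries of a group share their stage, and no p is given.

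Genes of known 14-3-3 clients were listed by their melon descriptions, 49 genes in 13 classes. From −24 to −15 hr in female nectaries 18 rose and 7 fell (51.0% called, beside 37.9% of all genes), and in male nectaries 3 rose and 0 fell (6.12%, beside 5.27%). At that female step 36.7% of clients rose and 14.3% fell, beside 13.9% and 24.0% of all genes. From −15 to 0 hr 12 rose and 11 fell in female nectaries (46.9%, beside 51.6%) and 13 rose and 13 fell in male nectaries (53.1%, beside 47.2%). From 0 to +9 hr 10 rose and 17 fell in female nectaries (55.1%, beside 49.4%) and 9 rose and 14 fell in male nectaries (46.9%, beside 49.0%). By direction, from −15 to 0 hr 24.5% rose and 22.4% fell in female nectaries, beside 20.5% and 31.1% of all genes. In male nectaries 26.5% rose and 26.5% fell, beside 17.5% and 29.7%. The clients that fell from 0 to +9 hr were 34.7% in female and 28.6% in male nectaries, beside 17.3% and 17.6% of all genes. Those that rose there were 20.4% and 18.4%, beside 32.0% and 31.4%. At −24 hr 8 clients were higher in female nectaries (16.3%, beside 24.6% of all genes) and 20 were lower (40.8%, beside 16.6%). Both this comparison and the female step from −24 to −15 hr include the female −24 hr libraries. Their nectary markers were low, and the part of that was not tested. At +9 hr 5 clients were higher and 4 lower in female nectaries (18.4% called, beside 14.7%). Higher were ACC synthase (D30805.1), calcium-dependent protein kinases 32-like (XM_008466889.1) and 10 (XM_008439479.1), plasma membrane ATPase 4-like (XM_008446867.1) and trehalose-phosphate synthase 5-like (XM_008450439.1), and lower were ABI5-like protein 6 (XM_008456734.1), calcium-dependent protein kinase 3 (XM_008453772.1), phototropin-1 (XM_008465641.1) and ATPase 11 (XM_008461072.1). At −15 and 0 hr limma called 0 clients, beside 0.135% and 0.248% of all genes, with unadjusted p below 0.05 for 1 and 7 of them. The 3 that rose in male nectaries from −24 to −15 hr were BES1/BZR1 homolog 4 (XM_008453524.1, log2 1.13), the cytosolic invertase CINV2 (XM_008440750.1, 1.35) and phototropin-2-like (XM_008463789.1, 2.20).

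Nitrate reductase (XM_008462231.1), the enzyme whose phosphorylated form is inactivated by 14-3-3 binding, peaked at anthesis. Its means were 1205 ± 485, 18531 ± 6480, 212826 ± 45049 and 7830 ± 8670 in female and 8319 ± 2628, 34538 ± 25488, 243227 ± 18878 and 18887 ± 7352 in male nectaries from −24 to +9 hr (SD, n = 3, or 2 at female −15 hr). From −15 to 0 hr it rose by log2 3.55 (SE 0.75, limma adjusted p = 0.00046) and 3.11 (SE 0.67, limma adjusted p = 0.00055), where 20.5% and 17.5% of all genes were called higher. From 0 to +9 hr it fell by −5.46 and −3.77 (limma adjusted p of 1.8e-06 and 7.4e-05).

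In sugar metabolism, sucrose-phosphate synthase 2 (XM_008458932.1), an enzyme of sucrose synthesis, fell by log2 −6.19 (limma adjusted p = 3.6e-06) in female and −4.46 (limma adjusted p = 9.8e-05) in male nectaries from 0 to +9 hr. Both genes of its class were called lower at that step, beside 17.3% of all genes in female and 17.6% in male nectaries. The bifunctional 6-phosphofructo-2-kinase/fructose-2,6-bisphosphatase (XM_008467041.1), which sets the level of the regulator fructose 2,6-bisphosphate, fell by −1.77 and −1.70 there. Cytosolic invertase CINV1 (XM_008448549.1), which splits sucrose inside the cell, rose from −24 to −15 hr in female nectaries by 3.46 (limma adjusted p = 1e-05). All 5 genes of its class were called higher at that step, beside 13.9% of all genes. The step started from the female −24 hr libraries, whose nectary markers were low, and the part of that was not tested. Trehalose-phosphate synthase 9 (XM_008448007.1) rose by 1.33 from 0 to +9 hr in male nectaries (limma adjusted p = 0.00011), and its female means at these stages were 2894 and 4691. Cytosolic glutamine synthetase GS1 (DQ851867.1), which assimilates ammonium, fell from −15 to 0 hr by −2.24 and −1.45.

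Of the membrane clients, plasma membrane ATPase 4 (XM_008453341.1), a proton pump activated by 14-3-3 binding, measured 3060 ± 420 at female −24 hr and 49437 ± 4543 at male −24 hr, a difference of log2 −4.02 (limma adjusted p = 2e-08). It rose by 4.41 in female nectaries from −24 to −15 hr (limma adjusted p = 3.6e-08) and fell by −2.13 in male nectaries from 0 to +9 hr (limma adjusted p = 1.5e-05). Its female means at 0 and +9 hr were 35670 and 22629. The −24 hr difference and the female rise of this pump include the female −24 hr libraries, whose nectary markers were low. The part of that was not tested. For a sex difference of the change from 0 to +9 hr, limma called 0 of 49 clients, beside 7.18% of all genes, with an unadjusted p below 0.05 for 12. The two-pore potassium channel 3 (XM_008441443.1) rose from −15 to 0 hr by 2.67 and 2.59 (limma adjusted p of 6.4e-06 and 2.4e-06). Phototropin-1 (XM_008465641.1), a blue-light receptor kinase, rose by 1.69 from −24 to −15 hr and fell by −2.48 from 0 to +9 hr in female nectaries. Its male means at 0 and +9 hr were 557 and 396.

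Of the remaining classes, calcium-dependent protein kinase 26 (XM_008452989.1) had an increase of log2 0.99 and 0.65 from −15 to 0 hr that stayed under 2-fold, and of the 14 kinases of its class 5 rose (XM_008438979.1, XM_008466889.1, XM_008468239.1, XM_008451482.1 and XM_008439479.1) and 3 fell (XM_008462628.1, XM_008453772.1 and XM_008441760.1) at that step in each sex (57.1% called, beside 51.6% of all genes in female and 47.2% in male nectaries). ABI5-like protein 5 (XM_008446391.1), of the abscisic acid response bZIP factors, rose by 2.29 and 1.86 from −15 to 0 hr (limma adjusted p of 9.1e-07 and 2.5e-06). BES1/BZR1 homolog 4, a brassinosteroid response factor, fell by −1.03 and −1.46 from 0 to +9 hr. The other 2 genes of its class rose there, BRASSINAZOLE-RESISTANT 1-like (XM_008446467.1) by 2.34 and 1.83 and BES1/BZR1 homolog 2 (XM_008442459.1) by 1.47 and 2.76. Of all genes, 32.0% in female and 31.4% in male nectaries were called higher at that step. ACC synthase (D30805.1), of ethylene synthesis, was listed at 0 in every −24 hr library of both sexes and averaged 569 ± 255 in female and 51.3 ± 31.4 in male nectaries at +9 hr. The client list was drawn from descriptions, with 6 calcium-transporting ATPases left out after values were seen. No binding between any of these proteins and a 14-3-3 protein was measured here.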

How the data were processed

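Normalized read values were taken from the table of all genes. Per the study's methods, the authors assembled 50-base paired-end reads with Trinity, matched contigs to melon genes by blastn and deposited upper-quartile normalized reads rounded to whole numbers, treated here as a score and not as counts. Which read counter was used is not stated in the sources. The authors' own group means, ratios and p-values and the further sheets were not used, and 0 columns belonged to other samples. All 23 libraries entered 1 limma fit (version 3.58.1, R 4.3.3) of log2(value + 1), with a mean per sex and stage and a mean-variance trend. Fold changes are on that scale, which understates changes of low genes. P-values were adjusted by Benjamini-Hochberg over 8861 genes in each of 17 comparisons, and genes were called below 0.05 at 2-fold or more. No filter on low values was applied. The fit was tested on simulated data. Members, client classes and markers were chosen with earlier results of these data known. Named genes were the members, the 5 genes most like protein D, the client gene with the highest mean in each class and genes that small counts concern. After values were seen, 6 calcium-transporting ATPases caught by the proton pump description were left out. The second female −15 hr library is numbered 2 in its description and 3 in its title. No sequence is printed, as none of these genes' sequences was used here. Alternatives were another pseudocount (10), a mean of at least 100, median-ratio scaling, no trend, each sex alone, a replicate block, each library left out and, chosen after seeing the data, no female −24 hr group.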

Additional observations from a re-analysis of the deposited data

Results flagged for a closer look

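For 3 members the change from −24 to −15 hr differed between the sexes by a test of the difference itself (limma, adjusted over 8861 genes). The difference of log2 changes, female minus male, was 1.88 for XM_008467997.1 (95% confidence interval 0.86 to 2.90), 5.07 for XM_008468006.1 (3.00 to 7.14) and −1.79 for XM_008447230.1 (−2.70 to −0.89). All 3 rest on the female −24 hr libraries, whose nectary markers were low, and the part of this in the differences was not tested.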

How the results depend on the processing

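No result changed direction among called values under any alternative tried. With pseudocount 10, a mean of at least 100 (8231 genes), no trend, each sex fitted alone or the female −24 hr group left out, every count of called members stayed within 1.5 times, and the one member whose call changed was XM_008468006.1 from −15 to +9 hr in male nectaries, gained with pseudocount 10, each sex alone or no female −24 hr group. Within each sex, replicate numbers did not visibly pair the libraries, since correlations of deviations over 33 same-numbered pairs ran from −0.21 to 0.19. Pairing of female with male libraries was not examined, and the second female −15 hr library is numbered otherwise in its title. With the replicate block, set within each sex, the count from −24 to −15 hr in female nectaries was again 4 and no member's call changed in any comparison. Leaving out 1 library at a time, that count ran from 2 (without the first female −15 hr library, which leaves 1 library there with its spread taken from the other groups) to 4, the female to male count at +9 hr from 1 (without the second or the third female +9 hr library) to 4 (without the first, which added XM_008468006.1), and the count for the sex difference of the change from 0 to +9 hr from 0 to 2 (without the first female +9 hr library). The male count from 0 to +9 hr fell below 8 without the first or second 0 hr or any single +9 hr male library. Median-ratio scaling moved the median of all genes by log2 0.32 and 0.31 from −15 to 0 hr and by −0.26 and −0.23 from 0 to +9 hr in female and male nectaries. Calls over all genes from −15 to 0 hr in female nectaries then went from 1817 higher and 2754 lower to 2265 and 2131, and from 0 to +9 hr from 2839 and 1537 to 2368 and 1964. In male nectaries they went from 1554 and 2631 to 1987 and 2000, and from 2780 and 1559 to 2424 and 1930. Among members it ended the call of XM_008446615.1 from −15 to 0 hr in male nectaries (−0.79) and added calls for XM_008457358.1 from 0 to +9 hr in female nectaries (−1.13) and from −15 to 0 hr (1.02) and −24 to 0 hr (1.04) in male nectaries and for XM_008446615.1 from −15 to +9 hr in female nectaries (1.13). Female −15 hr nectaries had 2 libraries, and read depth before normalization is unknown.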
